A study of Mus musculus with 12 samples.

Results

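The noncoding transcripts of the HOX clusters described here are *Hoxb5os*, *Hoxb3os*, *Hoxaas3*, *Hotairm1* and *Hotair*. They were taken by symbol from a table of 54352 gene symbols, so that 5 of 54352 rows are described, each beside the HOX genes next to it. All 5 rows were found, and 4 of them held at least 1 count. The cells were primary adventitial fibroblasts (the matrix-producing cells around the vessel) grown from the ascending or the descending aorta of wild-type C57Bl/6 mice. Cultures received solute control or mouse TGFβ at 10 ng/mL for 48 h, giving descending control, descending TGFβ, ascending control and ascending TGFβ groups of 3 libraries each. The labels give an age of 14 weeks and a single passage. The study's methods give a younger age and male mice, and its results text gives more passages. Nothing states that the 3 libraries of a group came from separate animals, so that p-values measure the spread between these libraries, which may be technical.

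HOX genes encode homeobox transcription factors that lie in 4 clusters, and their order along a cluster follows the order in which they are active from head to tail in the embryo. Fibroblasts keep much of this positional pattern in culture. Between the coding genes, on the opposite strand, lie long noncoding RNAs: HOTAIRM1 is known from myeloid differentiation, and HOTAIR, from the HOX C cluster, is known for its association with Polycomb repressive complexes. For *Hoxb5os*, *Hoxb3os* and *Hoxaas3* the name gives only the position against the coding genes.

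In GENCODE vM21 (GRCm38, the same assembly as mm10), *Hoxb5os* (ENSMUSG00000085645.1) lies at chr11:96291024-96306910 on the minus strand and *Hoxb3os* (ENSMUSG00000084844.3) at chr11:96343072-96354691 on the minus strand. *Hoxaas3* (ENSMUSG00000085696.8) lies at chr6:52175217-52215076 and *Hotairm1* (ENSMUSG00000087658.2) at chr6:52156902-52162119, both on the plus strand. *Hotair* (ENSMUSG00000086903.4) lies at chr15:102944062-102947730 on the minus strand. Each of the 5 runs on the strand opposite to every coding HOX gene of its cluster. GC content of the longest annotated transcript was 55.7% for *Hoxb5os*, 51.7% for *Hoxb3os*, 48.0% for *Hoxaas3*, 56.7% for *Hotairm1* and 41.5% for *Hotair*.

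Because these transcripts face coding genes, parts of their exons are also exons of those genes. The stretches below, for 4 of the 5, show sequence on which a read can be counted for the noncoding transcript, and for *Hoxb3os* and *Hoxaas3* also where it changes to shared sequence. They are annotated transcript sequence from GENCODE vM21, 5′ to 3′ on the strand of the transcript, with bases in no exon of another gene in capitals and bases that an exon of another gene also covers in lower case. The *Hoxb5os* stretch is its first exon, chr11:96306737-96306910, all 174 bases of which are unshared. The *Hoxb3os* stretch, chr11:96353983-96354112, runs 30 bases into the *Hoxb2* exon. The *Hoxaas3* stretch, chr6:52214391-52214520, runs 30 bases into the *Hoxa7* exon. The *Hotair* stretch, chr15:102947594-102947730, is the unshared start of its first exon.
Hoxb5os: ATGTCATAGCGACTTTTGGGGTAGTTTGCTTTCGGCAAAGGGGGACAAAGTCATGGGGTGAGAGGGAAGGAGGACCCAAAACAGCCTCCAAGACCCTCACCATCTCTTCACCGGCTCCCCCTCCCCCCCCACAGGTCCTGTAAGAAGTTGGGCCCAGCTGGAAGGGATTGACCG
Hoxb3os: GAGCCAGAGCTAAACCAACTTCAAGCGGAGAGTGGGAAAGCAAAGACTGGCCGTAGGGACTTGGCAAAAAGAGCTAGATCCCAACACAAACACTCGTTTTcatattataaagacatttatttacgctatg
Hoxaas3: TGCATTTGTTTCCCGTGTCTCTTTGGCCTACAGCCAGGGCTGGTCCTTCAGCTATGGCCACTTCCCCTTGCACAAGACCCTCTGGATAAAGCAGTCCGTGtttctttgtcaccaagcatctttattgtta
Hotair: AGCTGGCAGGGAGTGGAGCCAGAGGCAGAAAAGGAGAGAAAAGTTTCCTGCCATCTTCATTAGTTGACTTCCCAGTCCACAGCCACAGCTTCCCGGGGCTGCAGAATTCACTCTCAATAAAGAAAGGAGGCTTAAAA

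Of 696 exon bases of *Hoxb5os*, 596 lie in no exon of another gene, and the other 100 lie in *Hoxb5*. *Hoxb3os* has the least sequence of its own relative to its length, with 998 of 4201 bases, as 2250 bases are shared with *Hoxb3* and 953 with *Hoxb2*. *Hoxaas3* keeps 2003 of 2889 bases, *Hotairm1* 583 of 1025 and *Hotair* 1839 of 2006. Whether the counting used strand is not stated in the sources used here. In the table, 185 genes lie wholly inside exons of opposite-strand genes that hold at least 1000 counts, and 184 of these 185 are at 0. Counting that leaves out read pairs touching exons of 2 genes gives this pattern. Counting by strand would give it too where these genes were not expressed, and the zeros do not decide between them. Under the first way of counting, the counts of the noncoding transcripts come from the unshared bases. Of those bases, 30.2% in *Hoxb5os* lie in an intron of *Hoxb6*, 21.9% in *Hoxb3os* in an intron of *Hoxb3* and 42.5% in *Hoxaas3* in introns of *Hoxa3* and *Gm28308*, and none in *Hotairm1* or *Hotair* lie in an intron of a coding gene. If strand was not used, unspliced RNA of a HOX gene on these bases and RNA of the noncoding transcript cannot be told apart. The same holds for RNA of a HOX gene that runs past its annotated end onto unshared bases. Blocks of 679 bases in *Hoxb3os* and 1151 bases in *Hoxaas3* lie directly next to the exons of *Hoxb2* and *Hoxa7*.

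**Figure D1:**
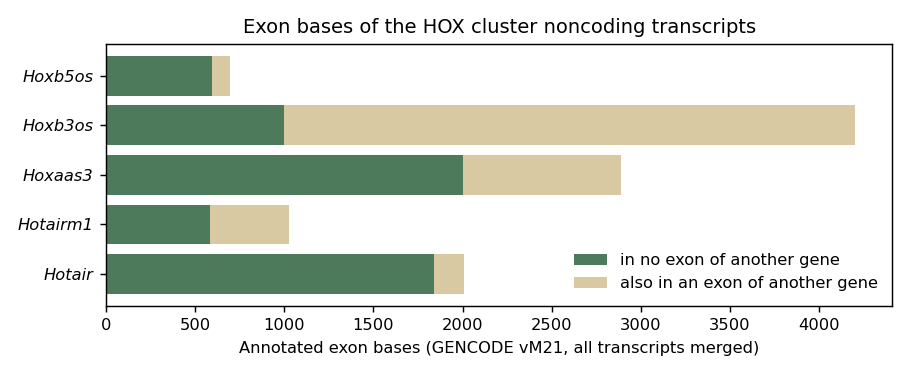
Annotated exon bases of the 5 noncoding transcripts (x axis, bases, all transcripts of a gene merged; 1 bar per transcript). The green part lies in no exon of another gene and the pale part also lies in one; *Hoxb3os* has 998 unshared of 4201 bases, and *Hotair* 1839 of 2006.

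The libraries held between 16250126 and 23892943 counts, and a count of 3, taken as the floor of a library, corresponded to 0.117 to 0.207 CPM (the count relative to the library total, scaled with TMM factors). Floors and count intervals cover counting error only, as PCR copies of a molecule were not marked. Descending control replicate 3 stood apart: 13031 genes were detected in it and 19337 to 20931 in each of the other 11 libraries, and its mitochondrial share of counts was 11.02%, compared with 0.703 to 1.03%. Fits of the noncoding transcripts that used it were repeated without it. All 5 markers of fibroblasts were above the floor in each group, with summed levels of 10359 to 23110 CPM over all libraries, whereas the endothelial marker *Tie1* had no count and the 5 endothelial markers summed to at most 2.20 CPM. Lists of other cell types moved with the site. The adipocyte markers *Adipoq* and *Plin1* summed to 19.5 to 25.7 CPM in descending control and 0.731 to 3.398 CPM in ascending control. The 3 Schwann cell markers, of which *Sox10* had no count in any descending library, summed to 0 to 1.13 CPM in descending control and 6.17 to 7.65 CPM in ascending control, and the 3 mesothelial markers to 6.90 to 13.1 and 32.9 to 42.7 CPM. Most of the mesothelial sum in ascending control was *Upk3b* (29.0 to 37.1 CPM), while *Krt19* went the other way, with 6.90 to 11.8 CPM in descending and 3.41 to 4.17 CPM in ascending control. The 5 smooth muscle markers summed to 2432 to 2507 CPM in descending control and 1529 to 1644 CPM in ascending control, and the 5 macrophage markers to 24.2 to 43.5 and 48.7 to 343 CPM. In the last of these lists ascending control replicate 2 stood apart, with *Lyz2* at 292 CPM against 38.9 and 42.4 CPM in the other ascending control libraries, and *Adgre1* at 12.5 against 2.00 and 2.05 CPM. Their part in the differences between sites was not tested, and fewer cells of a type and less RNA per cell cannot be told apart in bulk RNA.

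The main difference between sites among these transcripts was that of *Hoxb5os*, which was well above the floor in descending and near or under it in ascending fibroblasts. Its level in descending control was 14.4, 12.5 and 9.04 CPM in replicates 1, 2 and 3, and in descending TGFβ 13.9, 13.2 and 12.2 CPM. Ascending control libraries had 5, 6 and 1 counts (0.217, 0.300 and 0.0487 CPM) and ascending TGFβ libraries 4, 1 and 3 counts (0.209, 0.0473 and 0.146 CPM). The lowest descending library thus lay far above the highest ascending one with either treatment, and 3 of the 6 ascending libraries were at or under the floor. The mean was 12.0 ± 2.70 CPM (SD, n = 3) in descending control (13.4 ± 1.35 CPM, n = 2, without replicate 3) and 0.189 ± 0.128 CPM in ascending control, and 13.1 ± 0.871 and 0.134 ± 0.0815 CPM with TGFβ. From the summed counts, 787 against 12, the control ratio of descending to ascending was 65.9, with an exact 95% binomial interval of 37.5 to 128 (71.3, interval 40.5 to 139, without descending control replicate 3), and from 772 against 8 counts the ratio with TGFβ was 99.1, with an interval of 50.1 to 230.5.

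**Figure D2:**
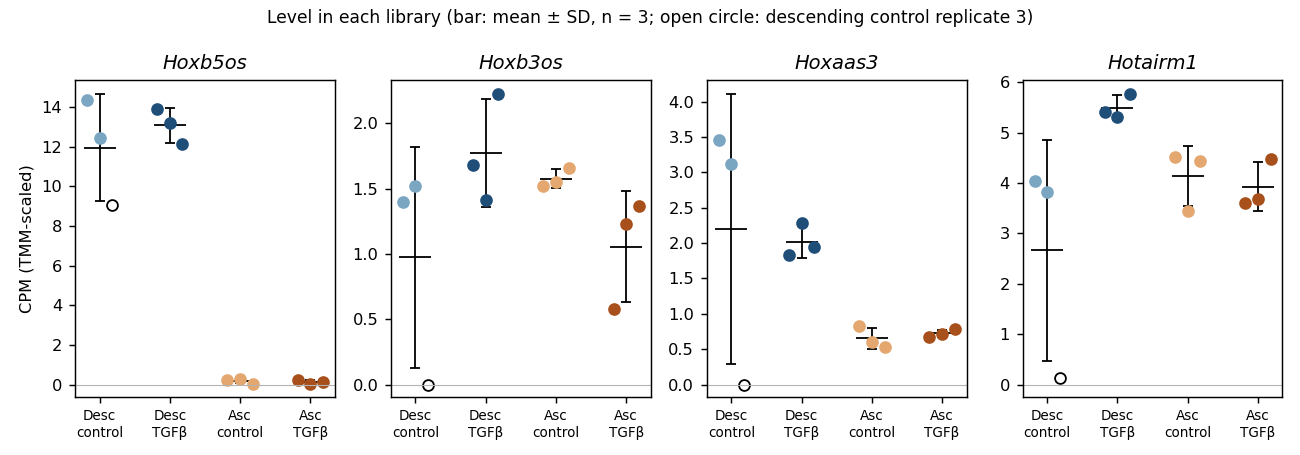
Level of 4 noncoding transcripts (y axis, TMM-scaled CPM, a separate scale per panel) in each library of the 4 groups; bars show the mean ± SD of 3 libraries, and the open circle is descending control replicate 3. *Hoxb5os* lay between 9.04 and 14.4 CPM in descending and at or below 0.300 CPM in ascending libraries; *Hotair*, with no count, is not drawn.

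On the log2 scale the difference of *Hoxb5os* between ascending and descending control was -5.94 (standard error 0.58, adjusted p = 0.00849, edgeR quasi-likelihood test with Benjamini-Hochberg adjustment over all genes tested). With TGFβ the log2 fold change was -6.56 (standard error 0.26, adjusted p = 1.84e-18, edgeR). The control value without descending control replicate 3 was -6.10 (standard error 0.28, adjusted p = 1.27e-09, edgeR). The control call at 0.05 depended on which library was left out: it was kept without ascending control replicate 3 and lost without any of 4 others. The adjusted p was 0.0508 without descending control replicate 1, 0.0553 without replicate 2, 0.0924 without ascending control replicate 1 and 0.0579 without ascending control replicate 2 (edgeR), while the fold change stayed between -6.39 and -5.50 over the 6 fits that left out a library. No such fit with TGFβ lost the call. With the replicate number as a block, *Hoxb5os* was not called in control, and 0 of all 14090 genes tested were (edgeR).

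*Hoxaas3* was also lower in ascending fibroblasts, with a smaller difference. It had 3.46 and 3.12 CPM in descending control replicates 1 and 2 and no count in replicate 3, and 1.84, 2.28 and 1.94 CPM in descending TGFβ. Ascending control libraries had 0.826, 0.600 and 0.536 CPM and ascending TGFβ libraries 0.679, 0.710 and 0.780 CPM. With TGFβ the sites did not overlap, and in control they overlapped only through the descending library at 0. The log2 fold change between sites with TGFβ was -1.47 (standard error 0.30, adjusted p = 0.000242, edgeR), and that in control was -1.74 (standard error 1.32, adjusted p = 0.576, edgeR). Leaving out descending control replicate 3 gave -2.30 in control (standard error 0.28, adjusted p = 2.43e-05, edgeR). In a joint fit, where all groups share one estimate of the spread, the adjusted p with TGFβ was 0.559 over the 12 libraries and 0.000175 over the 11 other than descending control replicate 3 (edgeR).

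*Hotairm1*, in the HOX A cluster, was measured at both sites. Its level was 4.05, 3.82 and 0.138 CPM in descending control, the last from 2 counts, and 4.52, 3.45 and 4.43 CPM in ascending control. In descending TGFβ it was 5.41, 5.31 and 5.77 CPM, and in ascending TGFβ 3.605, 3.69 and 4.48 CPM. The control groups overlapped, and every descending TGFβ library was above every library of the other groups. The log2 fold change between sites was -0.48 with TGFβ (standard error 0.16, adjusted p = 0.0167, edgeR) and 0.63 in control (standard error 0.95, adjusted p = 0.763, edgeR). The control value without descending control replicate 3 was 0.086, with a 95% confidence interval of -0.32 to 0.49. The call with TGFβ was lost without descending TGFβ replicate 3 (adjusted p = 0.0610), ascending TGFβ replicate 1 (0.0640) or ascending TGFβ replicate 2 (0.0617), all from edgeR, and in DESeq2's Wald test the adjusted p was 0.0778. It was also lost in the joint fit of 12 libraries (adjusted p = 0.975, edgeR) and kept in that of the 11 other than descending control replicate 3 (adjusted p = 0.0196, edgeR).

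*Hoxb3os* was low in all groups and was not called between sites. It had 1.40, 1.52 and 0 CPM in descending control, 1.68, 1.41 and 2.22 CPM in descending TGFβ, 1.52, 1.55 and 1.66 CPM in ascending control, and 0.575, 1.23 and 1.36 CPM in ascending TGFβ. Its site order turned with treatment: all 3 ascending control libraries lay above the descending control libraries, by as little as 1.52174 against 1.51865 CPM, and all ascending TGFβ libraries lay below the descending TGFβ libraries. The log2 fold change was 0.68 in control (standard error 1.13, adjusted p = 0.781, edgeR) and -0.74 with TGFβ (standard error 0.32, adjusted p = 0.0708, edgeR). Leaving out descending control replicate 3 gave 0.12 in control (95% confidence interval -0.47 to 0.72). With TGFβ the adjusted p was 0.0499 without descending TGFβ replicate 2 and 0.0488 without ascending TGFβ replicate 3, the only fits that left out 1 library and called it.

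*Hotair* had no count in any of the 12 libraries, nor had the coding genes on either side of it, *Hoxc12* and *Hoxc11*. In a single library a count of 0 allows up to 3 counts, or 0.117 to 0.163 CPM in those other than descending control replicate 3. Expression below that level is not excluded by the 0 of a single library. In descending control replicate 3 a 0 sets no such bound, as many genes counted in the other descending controls were at 0 there. Other genes of the HOX C cluster were counted in descending fibroblasts: *Hoxc8* had 1543 to 2065 counts in descending control and none in ascending control libraries.

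Counted together, 1 of the 4 tested transcripts (*Hoxb5os*) was called lower in ascending control fibroblasts, where 1.47% of all 14090 genes tested were called lower. Without descending control replicate 3 the count was 2 of 4 (*Hoxb5os* and *Hoxaas3*), where 15.2% of 14644 genes were called lower. With TGFβ, 3 of 4 were called lower, against 18.2% of 13678 genes. Called in either direction were 2.65% of all genes tested in control, 31.6% in control without that library and 36.3% with TGFβ. The median log2 fold change of the 4 was -0.56 in control, -1.11 in control without descending control replicate 3 and -1.10 with TGFβ, where the medians over all genes tested were 0.045, -0.0011 and 0.0024.

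Read along the clusters, the noncoding transcripts were interleaved with coding genes that differed between sites by very unequal amounts. In control without descending control replicate 3, the coding genes that *Hoxb5os* overlaps on the opposite strand had log2 fold changes of -2.70 (*Hoxb5*) and -5.53 (*Hoxb6*), and the nearest genes beyond them -0.54 (*Hoxb4*) and -6.76 (*Hoxb7*), beside -6.10 for *Hoxb5os* itself. For *Hoxb3os*, at 0.12, the values were -1.04 (*Hoxb3*) and -0.35 (*Hoxb2*). *Hotairm1* was at 0.086 and *Hoxa2* at -0.32. *Hoxaas3* spans *Hoxa3* to *Hoxa7*, over which the values went from -0.18 (*Hoxa3*) and -0.17 (*Hoxa4*) to -2.11 (*Hoxa5*), -3.71 (*Hoxa6*) and -3.29 (*Hoxa7*), and its own value was -2.30. The nearest gene beyond *Hoxa7*, *Hoxa9*, had a value of -7.05 (adjusted p = 2.80e-08, edgeR), with 0, 1 and 1 counts in ascending control libraries. Of the other coding genes, *Hoxb2*, *Hoxa2* and *Hoxa4* did not pass the test, while *Hoxa3*, *Hoxa5*, *Hoxa6*, *Hoxa7*, *Hoxb3*, *Hoxb4*, *Hoxb5*, *Hoxb6* and *Hoxb7* did (edgeR, adjusted p under 0.05). With all libraries *Hoxa3* (-0.26, adjusted p = 0.471), *Hoxb3* (-0.87, 0.203) and *Hoxb4* (-0.38, 0.491) did not pass either (edgeR), *Hoxb2* was at 0.22 in place of -0.35, and *Hoxa5*, *Hoxa6*, *Hoxa7*, *Hoxb5*, *Hoxb6* and *Hoxb7* passed with log2 fold changes of -7.16 to -2.59. Differences between a noncoding transcript and its neighbours were not tested.

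**Figure D3:**
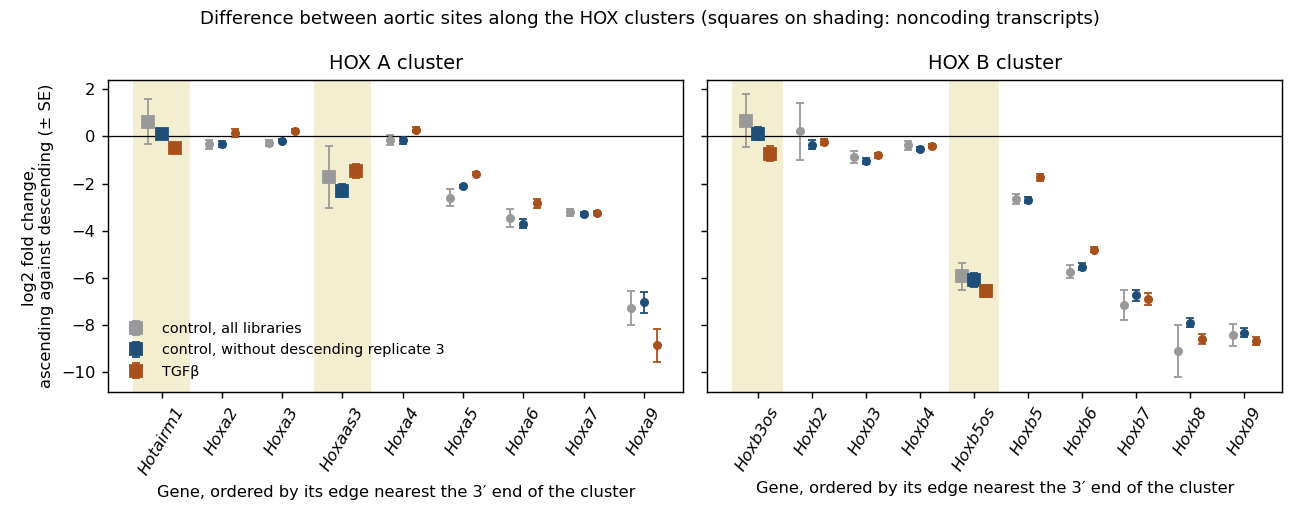
Log2 fold change of ascending against descending fibroblasts (y axis, ± standard error) for tested genes of the HOX A and HOX B clusters, ordered by the edge nearest the 3′ end of the cluster; squares on shading are noncoding transcripts, circles coding genes, and colours the comparison. Without descending control replicate 3, *Hoxb5os* (-6.10) lies near *Hoxb6* (-5.53), and *Hoxaas3* (-2.30) near *Hoxa5* (-2.11).

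Across libraries, the level of *Hoxaas3* ran with one side of its span. Over the 11 libraries other than descending control replicate 3, Pearson's r of log2 CPM (prior count 2) with *Hoxa5*, *Hoxa6* and *Hoxa7* was 0.97 each and with *Hoxa9* 0.96, and with *Hoxa2*, *Hoxa3* and *Hoxa4* it was 0.16, 0.081 and -0.12. Over all 12 libraries the values with *Hoxa5*, *Hoxa6* and *Hoxa7* were 0.052, 0.43 and 0.36. *Hoxb5os* correlated with *Hoxb6* at 0.98 over 12 and 0.99 over 11 libraries, with *Hoxb5* and *Hoxb7* at 0.96 each in both, and with *Hoxb4* at 0.79 and 0.93. *Hoxb3os* correlated with *Hoxb3* at 0.20 and 0.40, with *Hoxb2* at 0.93 and 0.15 and with *Hoxb4* at 0.38 and 0.33, and *Hotairm1* with *Hoxa2* at -0.47 and -0.56. These values are descriptions over libraries that share 4 groups and, for overlapping genes, the same stretch of chromosome. Among the 14637 genes that passed the filter, the 3 with the highest r over 12 libraries were *Pax1* (a paired box transcription factor; 0.99), *Hoxa7* (0.99) and *Hoxc4* (0.99) for *Hoxb5os*, and *Extl3* (0.99), *Pygb* (0.98) and *Aldh4a1* (0.97) for *Hoxaas3*, whose values without descending control replicate 3 were 0.97, 0.96 and 0.92. For *Hotairm1* they were *Mex3d*, *Mrps26* and *Ddit4*, which went from 0.995, 0.995 and 0.993 to 0.86, 0.84 and 0.86 without that library, and for *Hoxb3os* they were *Aamp*, *Snhg10* and *Ncoa5*, which went from 0.98 each to 0.84, 0.80 and 0.79. Ranked without that library, the 3 highest were other genes for *Hoxaas3* (*Gsn*, *Hoxb5* and *Tsc22d1*, at 0.98, 0.98 and 0.97), *Hotairm1* (*Styk1*, *Gm20554* and *Ndufa12*, at 0.91, 0.91 and 0.90) and *Hoxb3os* (*Gm5566*, *Dcst1* and *Armcx3*, at 0.92, 0.88 and 0.87), while *Pax1* and *Hoxc4* stayed among those of *Hoxb5os*.

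TGFβ, a cytokine that drives fibroblast activation, was compared with control within each site. In ascending fibroblasts none of the 3 tested transcripts passed the test, where 55.8% of 13917 genes did: 0 were called by edgeR, 0 had an unadjusted p under 0.05, and DESeq2 called 0. *Hoxb5os* was left out by the filter on low counts there. The log2 fold changes were -0.57 for *Hoxb3os* (95% confidence interval -1.24 to 0.10), 0.13 for *Hoxaas3* (-0.62 to 0.88) and -0.082 for *Hotairm1* (-0.46 to 0.30). For *Hoxb3os* the 3 ascending TGFβ libraries, at 0.575 to 1.36 CPM, lay below the 3 ascending control libraries, at 1.52 to 1.66 CPM, and the adjusted p was 0.140 (edgeR).

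In descending fibroblasts none of the 4 tested transcripts was called with all libraries, by edgeR or by DESeq2, and 0 had an unadjusted p under 0.05, where 8.07% of 13825 genes were called. The intervals were wide, from -1.24 to 3.29 for *Hotairm1* and from -3.08 to 2.80 for *Hoxaas3*. Without descending control replicate 3, *Hotairm1* rose by 0.49 on the log2 scale (standard error 0.17, adjusted p = 0.0192, edgeR) and *Hoxaas3* fell by 0.71 (standard error 0.23, adjusted p = 0.0109, edgeR). That is 2 of 4 transcripts, where 52.9% of 14311 genes were called. In this setting the 3 descending TGFβ libraries lay above both controls for *Hotairm1* (5.31 to 5.77 against 3.82 to 4.05 CPM) and below both for *Hoxaas3* (1.84 to 2.28 against 3.12 to 3.46 CPM). DESeq2 on the same libraries called neither (adjusted p = 0.0953 and 0.0909), although 2 had an unadjusted p under 0.05. *Hoxb5os* (-0.037, 95% confidence interval -0.27 to 0.19) and *Hoxb3os* (0.29, -0.32 to 0.90) were not called. With all libraries their values were 0.12 (-0.40 to 0.64) and 0.83 (-1.92 to 3.59).

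**Figure D4:**
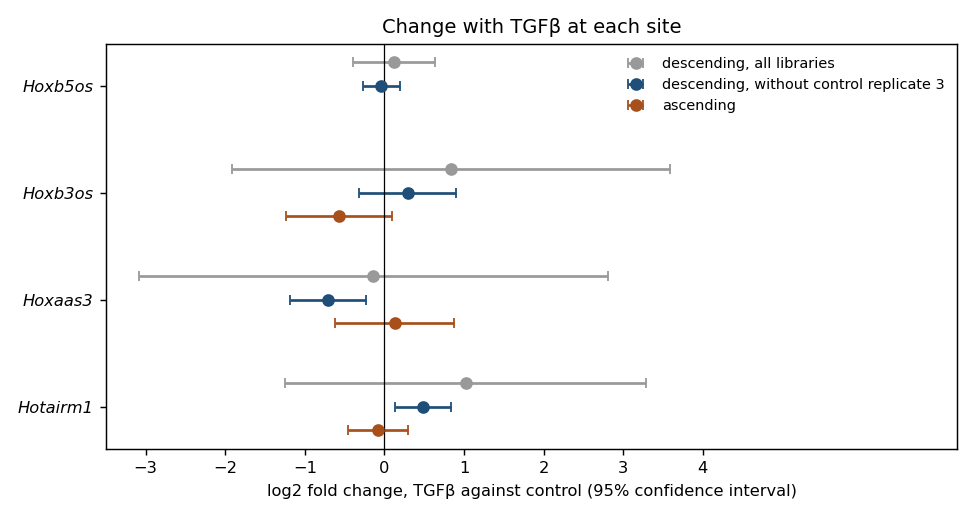
Log2 fold change of TGFβ against control (x axis, with 95% confidence interval) for 4 noncoding transcripts in descending fibroblasts with all libraries (grey), in descending fibroblasts without control replicate 3 (blue) and in ascending fibroblasts (brown; *Hoxb5os* not tested). The interval of *Hotairm1* narrows from -1.24 to 3.29 with all libraries to 0.13 to 0.84 without that library.

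The interaction of site and TGFβ asks whether the change with TGFβ differed between sites. None of the 4 transcripts was called by edgeR or DESeq2, and 0 had an unadjusted p under 0.05, where 0.806% of 14637 genes were called. When descending control replicate 3 was left out, edgeR again called 0 of 4, where 13.5% of 15013 genes were called, and 1 (*Hotairm1*) had an unadjusted p under 0.05. Its interaction was -0.56 (95% confidence interval -1.06 to -0.070, adjusted p = 0.136, edgeR). The interaction was 0.84 for *Hoxaas3* (-0.016 to 1.69, adjusted p = 0.217, edgeR) and -0.85 for *Hoxb3os* (-1.77 to 0.063, adjusted p = 0.246, edgeR). With all libraries the interactions were -1.08 for *Hotairm1* (-3.12 to 0.95), 0.29 for *Hoxaas3* (-2.49 to 3.06) and -1.39 for *Hoxb3os* (-3.82 to 1.05). For *Hoxb5os* the interaction was -0.62 (-2.13 to 0.89) with all libraries and -0.47 (-1.77 to 0.84) without that library. A difference between sites in the response of these transcripts was thus not shown, and the intervals do not show that the responses were alike. The comparisons within control, within descending and of the interaction share the descending control libraries.

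The values of descending control replicate 3 on these transcripts were set beside those of other genes at like levels. Of the 4 transcripts with counts, 2 were at 0 there, *Hotairm1* had 2 counts and *Hoxb5os* had 131. Among genes with a mean of 30 to 60 counts in descending control replicates 1 and 2, which includes *Hoxb3os* at 36 and 35 counts, 46.4% of 1013 were at 0 in replicate 3, and 50.6% of 164 long noncoding RNA genes. In the range of 60 to 100 counts, which holds *Hoxaas3* (89 and 72) and *Hotairm1* (104 and 88), 27.9% of 822 genes were at 0 and 29.0% had at most 3 counts. In the descending TGFβ libraries at most 0.494% of genes of the first range and 0.122% of the second were at 0. The median of the 1813 genes with 200 to 400 counts, the range of *Hoxb5os*, was 143 counts in replicate 3.

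**Figure D5:**
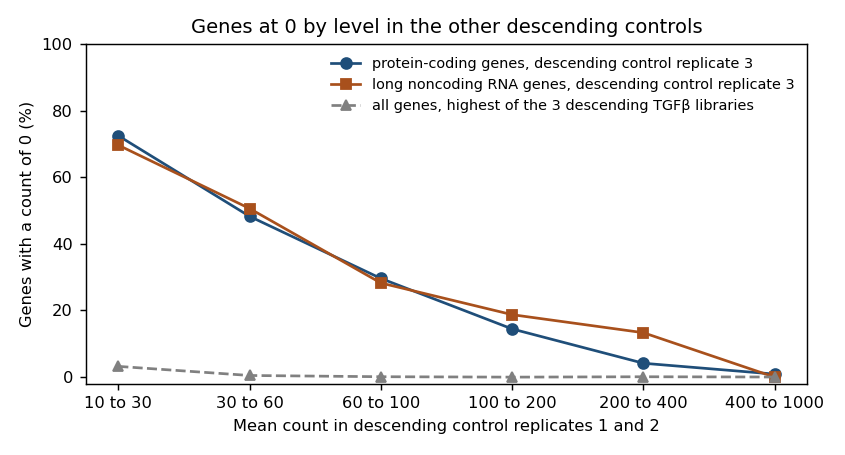
Percentage of genes with a count of 0 (y axis) by their mean count in descending control replicates 1 and 2 (x axis) in descending control replicate 3, for protein-coding (blue) and long noncoding RNA genes (brown), and the highest such percentage over the 3 descending TGFβ libraries (grey, all genes). In the 30 to 60 range the long noncoding RNA genes are at 50.6%.

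Levels of the transcripts can be set against each other only per length, here as CPM per kb of unshared exon bases, taking the counts to come from those bases. In descending TGFβ the order was *Hoxb5os* (21.9 ± 1.46 CPM per kb, SD, n = 3), *Hotairm1* (9.43 ± 0.411), *Hoxb3os* (1.78 ± 0.414) and *Hoxaas3* (1.01 ± 0.115), with no overlap of neighbours in this order. In descending control *Hoxb5os* (20.1 ± 4.53) was highest, and the ranges of *Hotairm1* (4.58 ± 3.76), *Hoxaas3* (1.10 ± 0.953) and *Hoxb3os* (0.9753 ± 0.847) overlapped through replicate 3. Without that library the means were 22.5, 6.75, 1.64 and 1.46 CPM per kb (n = 2). In ascending control *Hotairm1* (7.09 ± 1.02) was highest, followed by *Hoxb3os* (1.58 ± 0.0714), while *Hoxaas3* (0.326 ± 0.0761) and *Hoxb5os* (0.317 ± 0.215) overlapped. The order in ascending TGFβ was the same, with 6.73 ± 0.830, 1.06 ± 0.423, 0.361 ± 0.0257 and 0.225 ± 0.137 CPM per kb, and the lower pair overlapped again. *Hoxb5os* thus stood first of these transcripts in descending fibroblasts. The order further down depended on the length used. Per kb of all exon bases *Hoxaas3* (0.699 ± 0.0798 CPM) was above *Hoxb3os* (0.422 ± 0.0984) in descending TGFβ, and the levels of both were 0.250 and 0.251 CPM in ascending TGFβ. In ascending control *Hoxb5os* was then at 0.271 and *Hoxaas3* at 0.226 CPM. *Hoxb5os* stayed first in descending and *Hotairm1* first in ascending fibroblasts on either length.

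Other noncoding transcripts of the clusters gave few values. Of 18 listed, 13 had a row and 6 a count. *5730596B20Rik*, whose annotation is given below, is among these and among those tested. Between sites with TGFβ 3 were tested and 1 was called lower in ascending fibroblasts, where 18.2% of all genes tested were, namely the row named *Mir196a-1*, with 15, 12 and 25 counts in descending TGFβ and 1 count in each ascending TGFβ library. In control it had 20 and 22 counts in descending replicates 1 and 2 and none in replicate 3 or in ascending libraries, and it was called lower without descending control replicate 3 (adjusted p = 0.000223, edgeR) and not tested with all libraries. *5730596B20Rik*, which lies within the span of *Hoxaas3* on the same strand and which GENCODE vM21 annotates as protein-coding, was lower in ascending control fibroblasts without descending control replicate 3 (-0.89, standard error 0.17, adjusted p = 0.00114, edgeR). It was not called with all libraries (-0.72, adjusted p = 0.382, edgeR) or with TGFβ (-0.41, adjusted p = 0.0889, edgeR). Between TGFβ and control in descending fibroblasts, 0 of 3 were called with all libraries, where 8.07% of genes were. Without descending control replicate 3, *Halr1* was called higher (1.63, adjusted p = 0.0131, edgeR) and *5730596B20Rik* lower (-0.68, adjusted p = 0.000889, edgeR). In that setting 52.9% of genes were called. Of the 39 coding HOX genes, 23 were tested between sites with TGFβ, of which 17 were lower and 3 higher in ascending fibroblasts, where 18.2% of all genes tested were lower and 18.1% higher. Their median log2 fold change was -2.83, and 4 of them, with no count in ascending TGFβ libraries, lie below it both as fitted and at their bound. The RefSeq promoter table (GRCm38.p6) held 1 of the 5 transcripts, *Hoxb3os* (chr11:96353345-96353644, minus strand). That window lies inside the GENCODE vM21 exon of *Hoxb3os* that *Hoxb2* shares, as the RefSeq and GENCODE starts differ. On either strand of that window there was no retinoic acid receptor core motif AGGTCA, which 16.3% of 32851 promoters of that length held, no SMAD element CAGACA (21.0%), no AP-1 pattern TGANTCA (7.81%) and no TATA box TATAAA (13.6%). Nor did it hold the SMAD palindrome GTCTAGAC (0.213% of promoters) or the PBX-HOX pattern TGATNNAT (8.85%).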

How the data were processed

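The deposited values are whole-number read counts for each gene symbol in 12 libraries, which the authors made from paired reads aligned to mm10 and did not normalize. The submitters' processing notes name FastQC, STAR, featureCounts and DESeq2, with versions not given in the sources used here. Each of the 12 columns was mapped to its sample through the library name in the labels. Counts were tested in R 4.3.3 with edgeR 4.0.16 (TMM factors, filterByExpr at its defaults of 10 counts minimum and 15 in total, quasi-likelihood F-test on the groups compared, two-sided) and Benjamini-Hochberg adjustment over all genes tested, with a call at an adjusted p under 0.05. The standard error is the fold change divided by the square root of F. Alternatives were DESeq2 1.42.0 (the Wald test; its size factors within edgeR), tests without the filter, the replicate number as a block, a joint fit of the 12 libraries and the omission of each library in turn. On simulated data with 200 of 27496 genes changed 4-fold, edgeR recovered 99 to 100% with 3.85 to 7.83% false calls. The simulation used a dispersion of 0.02 in every library, left genes of low counts unchanged and held no library like descending control replicate 3. It therefore does not give the recovery in fits that use that library. Gene models came from GENCODE vM21 and count ratios had exact binomial intervals (scipy 1.17.1). The rule for named genes took the noncoding transcripts, the coding HOX genes that overlap them or lie nearest, and the 3 genes with the highest Pearson's r. Marker genes came from lists. *Hoxc8*, *Mir196a-1*, *5730596B20Rik*, *Halr1*, the chromatin regulators named and the genes ranked without descending control replicate 3 were chosen after their values were seen. The transcripts and lists were chosen with earlier results of these data known. One neighbouring gene and one sequence stretch are not reported here.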

Additional observations from a re-analysis of the deposited data

How the results depend on the processing

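The direction of *Hoxb5os* between sites held in every alternative run. The number of transcripts called between sites in control, 1 in the main fit, was 0 to 2 when 1 library was left out, 0 with the replicate block and 2 in each of 3 alternatives chosen after seeing the data, all without descending control replicate 3: DESeq2's Wald test, the replicate block and the 11 libraries in one fit. Between sites with TGFβ it was 3, and 1 with the 12 libraries in one fit, which shares the spread of the other groups (*Hoxaas3* adjusted p = 0.559, edgeR); it was 2 to 4 when 1 library was left out. For TGFβ in descending fibroblasts it was 0, 0 to 2 when 1 library was left out, and without descending control replicate 3 it was 1 (*Hoxaas3*) with the replicate block and 2 with the 11 libraries in one fit. It was 0 throughout for TGFβ in ascending fibroblasts and for the interaction. The fold change of *Hoxaas3* with TGFβ in descending fibroblasts, -0.14, turned to 0.64 with the replicate block, to 0.35 without descending control replicate 1 and to 0.20 without replicate 2 (range -0.71 to 0.35 over the fits that left out 1 library), and its interaction, 0.29, to -0.18 and -0.027 without these libraries (range -0.18 to 0.84). That of *Hoxb5os* with TGFβ in descending fibroblasts, 0.12, was -0.037 to 0.28 when 1 library was left out, with the lowest value without descending control replicate 3, and on those libraries it was -0.023 in DESeq2 and -0.037 in one fit of 11 libraries. The cause was not tested. Same-numbered libraries correlated at -0.026 to 0.066 in their deviations from the group means. With so few libraries per group, these values cannot decide whether the numbers pair the samples. Over all genes the replicate block took the calls between sites in control from 374 to 0. It took those of TGFβ in descending fibroblasts from 1115 to 95. Levels of 1 CPM rest on about 20 counts, which limits the precision for *Hoxb3os* and *Hoxaas3*.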

Other observations

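Of the 14 chromatin regulators listed for their known roles at HOX clusters, 4 were called between sites with TGFβ (edgeR), where 36.3% of all genes tested were called, so that the count is no larger than the background. *Ezh2*, the methyltransferase of Polycomb repressive complex 2, differed by 1.11 on the log2 scale, higher in ascending fibroblasts (standard error 0.083, adjusted p = 5.27e-12, edgeR), and *Rbbp4* was higher by 0.22. *Kdm6b*, a demethylase of the mark that complex sets, had a log2 fold change of -0.34 and *Rcor1* of -0.13 with TGFβ. The median over the 14 with TGFβ was 0.091, and over all genes tested 0.0024. In control the log2 fold change of *Ezh2* was 0.00097 (adjusted p = 0.998, edgeR), and 0.35 without descending control replicate 3 (adjusted p = 0.0122, edgeR). None of the 14 was called in control, and 5 were without that library, where 31.6% of genes were called. Whether these levels bear on the noncoding transcripts was not tested.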
